A study of Mus musculus with 6 samples.

Results

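The genes described here are 40 genes of the cell cycle and of DNA replication, taken as a list by name and followed across 6 lines of mpkCCD cells. A gene was taken as measured where a probe set of the array was annotated to that gene alone, and the probe set with the highest mean signal over the 6 arrays stood for it. This gave 39 of the 40 genes, out of 18193 genes with such a probe set, and Ccnb1 had none. Of the 39, 38 passed a filter on low signal (an average over all lines of more than 85.46, the median of the probe sets). Signals are MAS5 values, the array software's measure of brightness on a linear scale, and they are not comparable between probe sets. In all, 10342 genes passed the filter. Ccnd2 was the exception, with signals between 3.98 and 88.1, so it was not tested.

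mpkCCD cells are mouse kidney cells derived from cortical collecting duct, and are known to carry the large T antigen of a simian polyomavirus, a protein that binds the Rb protein. The 6 lines were clones 2, 3, 9, 10 and 11 and the original cells, each grown with 0.1 nM dDAVP, an analog of vasopressin, for 5 days before RNA was taken. The labels describe clone 2 as lacking expression of aquaporin 2 (AQP2, the water channel of principal cells, gene Aqp2) and the 5 other lines as expressing it. Each line was measured on 1 array, and the spread that the tests use is the one between lines. A difference of the cells therefore cannot be told apart from one of the culture or the array. Because only 1 line is labelled as lacking AQP2, that label cannot be told apart from any other trait of clone 2.

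A dividing cell passes from G1 into S phase, copies its DNA, and then goes through G2 into mitosis. Cyclins bind and switch on cyclin-dependent kinases (CDKs), which in G1 phosphorylate the Rb protein and so release E2F factors, and these switch on the genes of DNA replication. Later in the cycle cyclins A and B with CDK1 drive mitosis, whose genes are commonly controlled through CCAAT boxes, bound by the factor NF-Y, and through the CHR element, bound by the DREAM and MuvB complexes. Principal cells of the adult duct divide rarely, while a cultured line grows continuously. In RNA from whole cultures, a larger share of cells in a phase and more RNA per cell cannot be told apart.

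The 250 bases before the start site are shown for the gene that passed the test in clone 2 and has a sequence in the table used here, Rrm2, and for 3 mitotic genes with small unadjusted p-values for the slope on Aqp2 in the expressing lines, Ccnb2, Mki67 and Top2a, none of which passed that test. The sequences are from RefSeq, build GRCm38.p6, written 5′ to 3′ along the gene's strand, and capitals mark CCAAT on either strand and the CHR letters TTTGAA on either strand. The positions are chr12:24708004-24708253 on the plus strand for Rrm2, chr9:70421555-70421804 on the minus strand for Ccnb2, chr7:135716380-135716629 on the minus strand for Mki67 and chr11:99024190-99024439 on the minus strand for Top2a.
Rrm2: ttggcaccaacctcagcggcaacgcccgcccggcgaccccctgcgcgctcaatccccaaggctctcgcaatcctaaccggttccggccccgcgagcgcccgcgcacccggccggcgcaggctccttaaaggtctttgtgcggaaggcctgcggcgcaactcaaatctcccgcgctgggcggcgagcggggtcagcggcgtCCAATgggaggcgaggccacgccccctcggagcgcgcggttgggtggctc
Ccnb2: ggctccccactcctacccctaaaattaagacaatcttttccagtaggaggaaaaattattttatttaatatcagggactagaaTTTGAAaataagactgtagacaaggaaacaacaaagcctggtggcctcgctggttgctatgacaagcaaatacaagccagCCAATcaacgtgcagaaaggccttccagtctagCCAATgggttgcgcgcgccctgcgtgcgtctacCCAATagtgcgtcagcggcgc
Mki67: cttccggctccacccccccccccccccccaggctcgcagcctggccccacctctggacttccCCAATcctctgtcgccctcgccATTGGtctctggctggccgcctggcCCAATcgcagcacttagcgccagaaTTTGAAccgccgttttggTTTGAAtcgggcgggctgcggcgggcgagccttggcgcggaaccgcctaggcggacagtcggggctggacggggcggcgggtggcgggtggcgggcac
Top2a: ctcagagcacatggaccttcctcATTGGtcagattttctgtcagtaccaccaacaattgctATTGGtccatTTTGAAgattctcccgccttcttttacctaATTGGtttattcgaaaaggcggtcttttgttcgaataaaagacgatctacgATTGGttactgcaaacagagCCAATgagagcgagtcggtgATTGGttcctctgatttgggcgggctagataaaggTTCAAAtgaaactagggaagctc
The Ccnb2 sequence held 3 CCAAT boxes and 1 CHR match, that of Mki67 held 3 and 2, that of Top2a held 6 and 2, and that of Rrm2 held 1 CCAAT box and no CHR match. RefSeq start sites were found for 32 of the 40 genes, with 35 start sites in all. CCAAT was present before all 11 start sites of the G2 and mitosis genes, against 33.8% of 32851 start sites of all genes, and before 24 of the 35. The CHR letters were present before 5 of the 11, against 16% of all start sites, and beyond these only before that of Mcm2, which makes 6 of 35. The 11 include that of Ccnb1, which was not measured. CCAAT was also present before 7 of 9 start sites of licensing and fork genes. Among 32 start sites of the other genes of mitosis listed further below, 21 had CCAAT and 9 the CHR letters. No matches of different motifs overlap in the 4 sequences shown. The E2F letters TTTCGCGC or TTTGGCGC, searched on either strand, were absent from these 4 and present before 4 of the 35 start sites, against 0.654% of all. These matches describe the letters in the window and do not show that a factor is bound.

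Aqp2 itself read 159.28 in clone 2, against 1066.4 (clone 10), 1697.9 (clone 3), 3822.4 (original cells), 4683.4 (clone 9) and 6577.7 (clone 11). Array medians lay between 79.6 and 88.6. The summed signal of 14 principal cell markers was 16300 in clone 2 and 32930 to 38710 in the expressing lines, and 11 of the 14 passed the filter, all but Aqp4, Elf5 and Kcnj1. This sum includes Aqp2, and bright probe sets weigh most in it, such as Npnt with 3832.7 in clone 2 against 9723.4 to 11479. Aqp2, Scnn1a, Scnn1g, Fxyd4, Gata3, Hsd11b2, Npnt and Tfcp2l1 were below every expressing line in clone 2. In contrast, Aqp3 was above every one, at 191.92 against 96.359 to 150.02, and Avpr2 and Scnn1b lay within the range. The summed signal of 6 intercalated cell markers, of which Atp6v1b1 and Aqp6 passed the filter, was 1108 in clone 2 against 761.9 to 1102. Atp6v1b1 made up 949.26 of it, while Aqp6 was lower in clone 2, at 38.955 against 221.75 to 328.11 (log2 difference -2.36, limma adjusted p = 0.00648). All 8 fibroblast and 4 endothelial markers were below the filter. Of 5 leukocyte markers only Cd68 passed it, and the summed signal of the 5 was 723.3 in clone 2 against 236 to 485.9, while Ptprc was below the filter. The part of these marker differences in the results below was not tested.

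**Figure D1:**
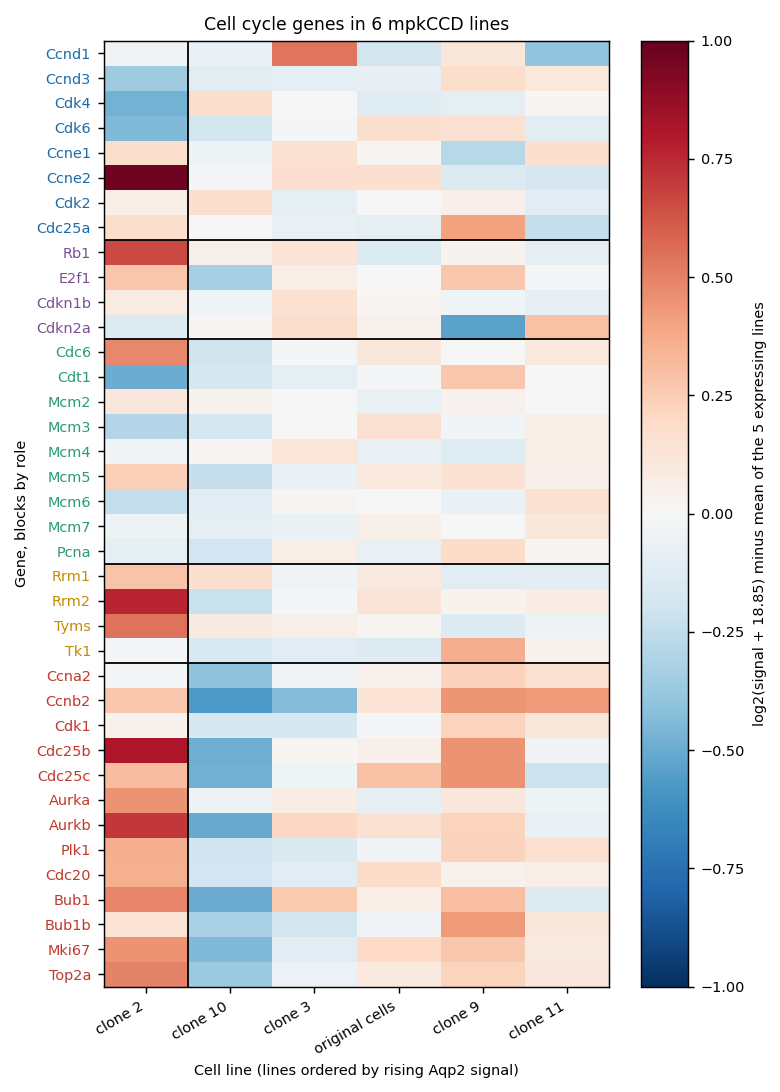
Colour shows log2(signal + 18.85) of each of 38 genes (rows in blocks by role, with names coloured by role) in each line (columns, in order of Aqp2 signal), minus the gene's mean over the 5 expressing lines, 1 array per line. Clone 2 is red for Ccne2, Rrm2 and most G2 and mitosis genes, and clone 10 is blue for 11 of 13 G2 and mitosis genes in which it was the lowest expressing line.

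Set against the AQP2-expressing lines, clone 2 had more transcript of a G1/S cyclin and of a subunit of the enzyme that makes deoxynucleotides, and no cell cycle gene passed the test in the other direction. Ccne2 was 1.98 times and Rrm2 1.69 times the mean of the expressing lines. Differences were tested on log2(signal + 18.85) with limma over 22518 probe sets, and called at a Benjamini-Hochberg adjusted p below 0.05. Of the 38 genes, 2 were higher by this test, against 1.29% of all genes tested, and 0 were lower, against 1.86%, so 2 were called in either direction, against 3.14%. At an unadjusted p under 0.05 there were 13 of 38 in either direction, against 22.3% of all genes. The median log2 difference of the 38 was 0.18, beside 0.01 for all genes, and 25 of 38 differences were positive, against 51.5% of all genes. Clone 2 lay above all 5 expressing lines for 18 of the 38 and below all of them for 6, against 29% and 26.9% of all genes.

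Among G1 cyclins and CDKs, 1 of 8 tested genes was higher in clone 2 by the test, against 1.29% of all genes. None of the others passed it. Ccne2, one of the E-type cyclins that activate CDK2 at the start of S phase, had signals of 1326 in clone 2, against 749.88 (clone 3), 603.29 (clone 9), 655.9 (clone 10), 591.7 (clone 11) and 750.25 (original cells). Clone 2 thus lay well above the expressing lines, which ranged over 1.27 times (670.2 ± 76.8, SD, n = 5). The log2 difference was 0.97 (SE 0.193, limma adjusted p = 0.0393). Its paralog Ccne1 stood at 703.91 against 623.3 ± 76.9 (SD, n = 5; log2 difference 0.18, limma adjusted p = 0.666), and whether the paralogs differ from each other was not tested. The probe set of Ccne1 has a suffix that marks probes which may bind other transcripts, and its other probe set differed by 0.47 (limma adjusted p = 0.372).

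The kinases of the D-type cyclins had the opposite sign. Cdk4, which phosphorylates Rb together with D cyclins, had 4135.8 in clone 2, against 5773.5 (clone 3), 5404 (clone 9), 6502.7 (clone 10), 5835.3 (clone 11) and 5283.8 (original cells). Clone 2 was the lowest line without overlap, but the log2 difference of -0.47 (SE 0.138) did not pass the test (limma adjusted p = 0.107). Cdk6, which acts like Cdk4, stood at 1040.6 against 1429 ± 152 (log2 difference -0.44, limma adjusted p = 0.206), and the cyclin Ccnd3 at 948.93 against 1227 ± 118 (-0.36, limma adjusted p = 0.283), each with n = 5 expressing lines. For these 3 genes, of the 8 tested in this role, clone 2 was below every expressing line, beside 26.9% of all genes. The medians of all genes on their chromosomes were -0.24 on chromosome 10 for Cdk4, 0.10 on chromosome 5 for Cdk6 and -0.37 on chromosome 17 for Ccnd3. The probe set of Cdk4 also has the suffix for probes that may bind other transcripts. Its other probe sets differed by -0.29 and -0.39. In the former, clone 2, at 3451.8, was close to clone 9, at 3502.4. Ccnd1, the main D cyclin target of growth signals, stood within the range of the expressing lines, at 2082.6 in clone 2 against 1614.7 to 3091, with a log2 difference of -0.03 that became 0.058 with median centring. Its 2 other probe sets differed by -0.34 (limma adjusted p = 0.63) and -0.75 (0.223), and in the latter clone 2, at 422.66, was below every expressing line (565.18 to 1064.4). The mean over its probe sets gave -0.37. Cdk2 and Cdc25a, the kinase partner of cyclin E and a phosphatase that activates it, also lay within that range.

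Of the G1 switch and its inhibitors, none of 4 genes passed the test. Rb1, which encodes the Rb protein that restrains E2F factors, had 2395.3 in clone 2, against 1664.1 (clone 3), 1550.8 (clone 9), 1571.5 (clone 10), 1408 (clone 11) and 1374.3 (original cells). Clone 2 was the highest line without overlap, at 1.58 times the mean of the expressing lines (log2 difference 0.66, SE 0.157, limma adjusted p = 0.0629). The adjusted p was 0.0469 with median centring of the arrays and 0.0482 with a filter at the 75th percentile of mean signal, and it lay between 0.0469 and 0.119 over all settings tried. E2f1, the E2F factor induced at the entry into S phase, had 1353.7 in clone 2 and, in clone 9, 1349.9, with 882.69 to 1170.2 in the other expressing lines (log2 difference 0.28, SE 0.212, limma adjusted p = 0.5). A second probe set of E2f1 had 1070.3 in clone 2 against 261.12 to 712.95 (0.94, limma adjusted p = 0.288), and the mean over both gave 0.61. Cdkn1b, the CDK inhibitor p27, stood at 4894.8 against 4642 ± 308 (SD, n = 5; limma adjusted p = 0.777). Cdkn2a, whose probe set covers a locus that encodes an inhibitor of CDK4 and CDK6 and the ARF protein, stood at 461.08 against 519 ± 107 (SD, n = 5; limma adjusted p = 0.827).

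**Figure D2:**
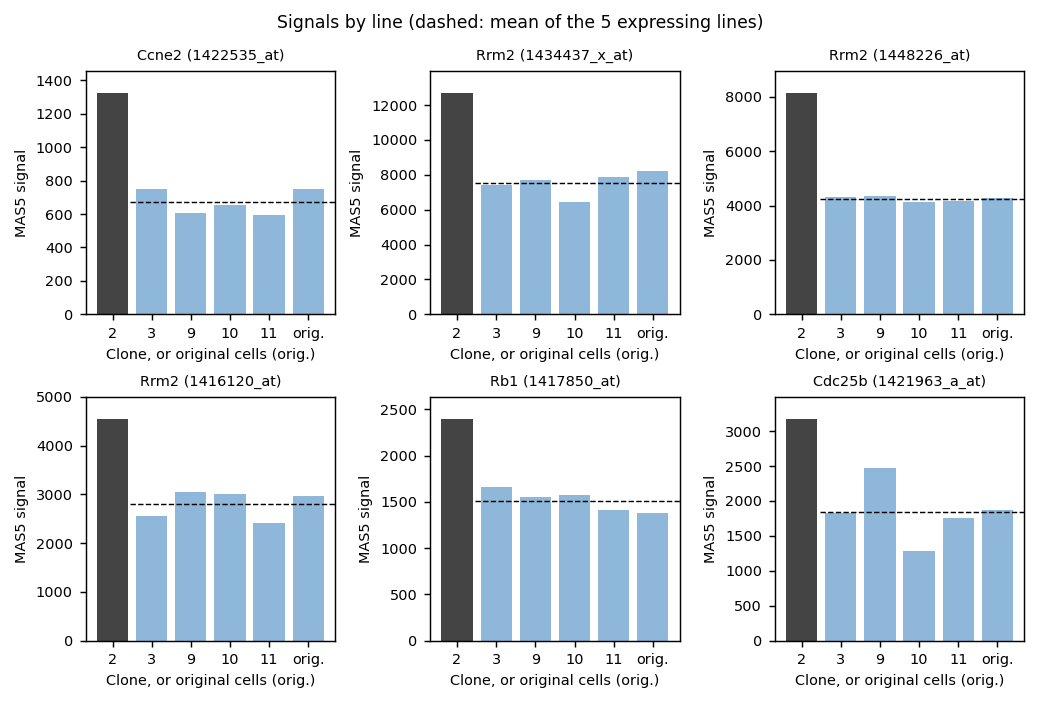
Bars give the MAS5 signal (linear axis from 0) of 6 probe sets in each line, 1 array per line, with clone 2 in dark grey, the 5 expressing lines in blue and the mean of the expressing lines as a dashed line. All 3 probe sets of Rrm2 and those of Ccne2, Rb1 and Cdc25b are highest in clone 2.

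Of the 4 genes of nucleotide supply, 1 was higher in clone 2 by the test, against 1.29% of all genes. Rrm2, the subunit of ribonucleotide reductase whose level follows S phase, had 12705 in clone 2, against 7410.5 (clone 3), 7690.2 (clone 9), 6426.6 (clone 10), 7873.8 (clone 11) and 8217.5 (original cells). The expressing lines lay close together (7524 ± 680, SD, n = 5) and none reached clone 2, and the log2 difference was 0.76 (SE 0.141, limma adjusted p = 0.0335). This probe set carries the suffix for probes that may bind other transcripts, but the other 2 probe sets of Rrm2 differed in the same direction. One had 8147.8 in clone 2 against 4127.3 to 4356.2 in the expressing lines (log2 difference 0.94, limma adjusted p = 0.00778), and the other 4545.6 against 2409.2 to 3052.8 (0.70, limma adjusted p = 0.0605). The large subunit Rrm1 stood at 4786.7 against 3926 ± 333 (log2 difference 0.29, limma adjusted p = 0.3), above every expressing line. Tyms, the thymidylate synthase, had 718.59 in clone 2 and 507.92, 441.96, 519.6, 467.97 and 496.81 in clones 3, 9, 10 and 11 and the original cells. Clone 2 was again highest without overlap, but the difference of 0.55 (SE 0.177) did not pass (limma adjusted p = 0.136), and a second, dimmer probe set of Tyms differed by 0.09 (limma adjusted p = 0.896). The thymidine kinase Tk1 lay within the range of the expressing lines, at 1924.3 against 1736.9 to 2488.5.

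The calls for Ccne2 and Rrm2 were not stable. Both were lost with no filter (limma adjusted p = 0.0664 for Ccne2 and 0.0783 for Rrm2) and without the mean-variance trend (0.0737 and 0.101). Omitting clone 3 gave 0.0551 and 0.0611, omitting clone 11 gave 0.0702 and 0.0551, and omitting the original cells gave 0.0711 and 0.0615. Omitting clone 10 ended that of Ccne2 alone (0.0655). Ccne2 was called in 10 of 16 settings (adjusted p 0.0301 to 0.0737) and Rrm2 in 11 of 16 (0.00778 to 0.101). The median difference of all genes was 0.19 on chromosome 4, which holds Ccne2, and 0.22 on chromosome 12, which holds Rrm2, and the part of these shifts in both differences was not tested.

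Genes of origin licensing and of the replication fork were split in sign, and none of 9 passed the test. Cdc6, which loads the MCM helicase onto origins, had 2351.4 in clone 2, against 1660.3 (clone 3), 1672.2 (clone 9), 1464.6 (clone 10), 1812.4 (clone 11) and 1820.9 (original cells), which put clone 2 above all expressing lines (log2 difference 0.48, SE 0.161, limma adjusted p = 0.146). Cdt1, its partner in loading the helicase, had 6247.4 in clone 2, against 8262.5 (clone 3), 10649 (clone 9), 7903.4 (clone 10), 8786.2 (clone 11) and 8743.5 (original cells), which put clone 2 below all of them (-0.50, SE 0.156, limma adjusted p = 0.127). A second probe set of Cdt1 had the same sign (-0.38, limma adjusted p = 0.292). The 6 subunits of the helicase were split. Clone 2 was above every expressing line for Mcm2 (log2 difference 0.11) and Mcm5 (0.24), and below every one for Mcm3 (-0.29) and Mcm6 (-0.24). It lay within the range for Mcm4 (-0.03) and Mcm7 (-0.05). Of the 9 licensing and fork genes, clone 2 was above all expressing lines for 3 and below all for 3. These shares stand beside 29% and 26.9% of all genes. The median difference of all genes was -0.279 on chromosome 1, which holds Mcm3 and Mcm6, so both lay near that of their chromosome. It was 0.135 on chromosome 6 for Mcm2 and -0.008 on chromosome 8 for Mcm5, and the part of these shifts was not tested. The difference of Mcm7 turned positive with quantile normalization (0.057) and median centring (0.039), and that of Mcm4 with median centring (0.064). Pcna, the sliding clamp of the DNA polymerases, lay within the range, at 21739 against 20417 to 26547, with a log2 difference of -0.10 that became 0.115 with quantile normalization.

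Genes of G2 and mitosis had mostly positive differences in clone 2, and none of the 13 passed the test. Of the 13, 12 had a positive difference, against 51.5% of all genes, and clone 2 exceeded all expressing lines for 8, against 29%, with a median log2 difference of 0.36 beside 0.01 for all genes. Cdc25b, a phosphatase that activates CDK1, had 3172.8 in clone 2, against 1820.4 (clone 3), 2466 (clone 9), 1278.6 (clone 10), 1759.2 (clone 11) and 1865.1 (original cells) (log2 difference 0.81, SE 0.275, limma adjusted p = 0.15). Without clone 9, the highest expressing line, it passed the test (0.93, limma adjusted p = 0.0484, with 0.0484 to 0.252 over all settings). Leaving out clone 9 also raised the number called among all genes tested, from 325 to 541. Aurkb, the kinase of the chromosomal passenger complex, had 2270.4 in clone 2, against 1605.3 (clone 3), 1615 (clone 9), 971.18 (clone 10), 1313 (clone 11) and 1538.6 (original cells) (0.71, SE 0.261, limma adjusted p = 0.179). In both genes clone 2 was highest and clone 10 lowest. The probe set of Aurkb carries the suffix for probes that may bind other transcripts. A second probe set of Aurkb differed by 0.82, with 1573.3 in clone 2 against 734.5 (clone 11) to 994.83 (clone 3).

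Top2a, the topoisomerase that untangles sister chromosomes, stood at 11889 in clone 2 against 8520 ± 1280 (log2 difference 0.49, limma adjusted p = 0.203), and Mki67, the proliferation antigen Ki-67, at 10679 against 7951 ± 1480 (0.45, limma adjusted p = 0.317), each with n = 5 expressing lines. The spindle checkpoint kinase Bub1 (0.49), the mitotic kinases Aurka (0.45) and Plk1 (0.36) and Cdc20 (0.36), the activator of the ubiquitin ligase that ends mitosis, were also above all expressing lines. For the other 5 genes clone 2 lay within the range of the expressing lines. Ccna2 had 7518.3 in clone 2 against 7652 ± 1210 (-0.01, and 0.082 with median centring, limma adjusted p = 0.986) and Cdk1 6457.9 against 6334 ± 752 (0.04, limma adjusted p = 0.928), each with n = 5. The remaining 3 were Ccnb2 (0.27), Cdc25c (0.31), a phosphatase of CDK1, and the checkpoint kinase Bub1b (0.14).

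**Figure D3:**
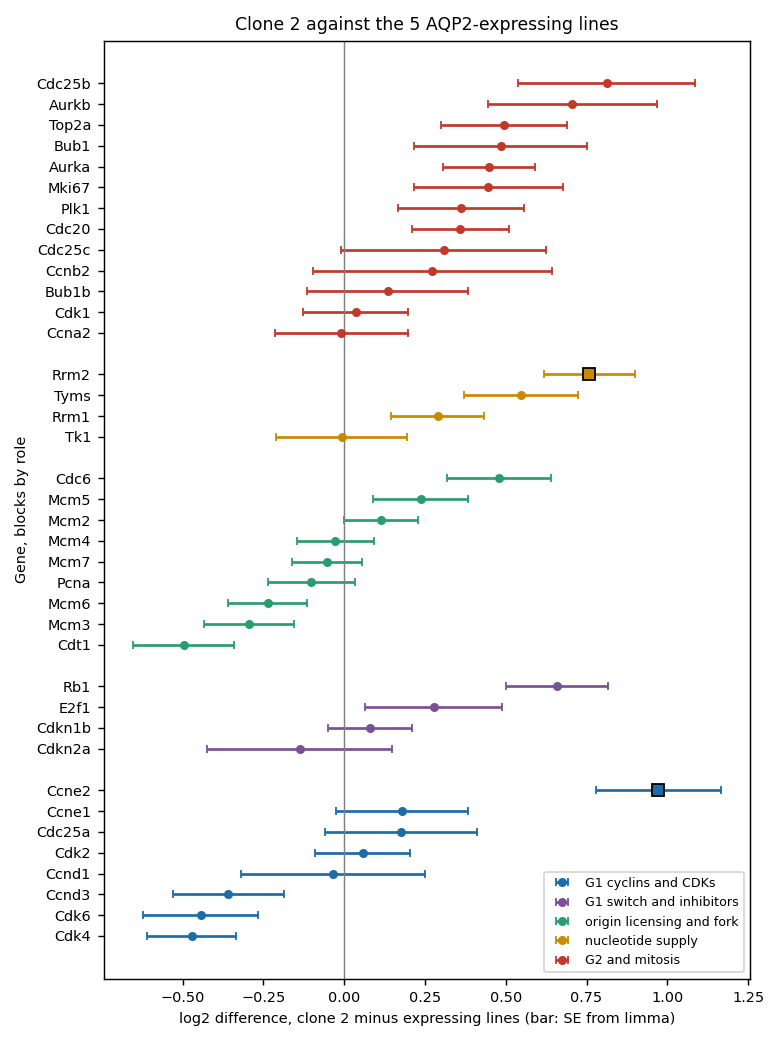
Each point is the log2 difference of 1 gene between clone 2 and the mean of the 5 expressing lines, with its standard error from limma as a bar, sorted within blocks of role. The squares with a black edge are the 2 genes past the test, Ccne2 at 0.97 and Rrm2 at 0.76, and 12 of 13 G2 and mitosis genes lie to the right of 0.

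Among the 5 expressing lines alone, with clone 2 left out, the question was whether the level of a cell cycle gene went with that of Aqp2, which spanned 2.60 log2 units. The slope is the log2 change of a gene per log2 unit of Aqp2. None of the 38 genes passed the limma test (adjusted p under 0.05 over 22517 probe sets), against 0.0193% of all genes, while 9 had an unadjusted p under 0.05, all with a positive slope, against 7.06% of all genes with such a p and a positive slope.

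By role, the counts were these. All 13 genes of G2 and mitosis had a positive slope, against 50.9% of all genes, with a median of 0.19 beside 0.00 for all genes, and 8 of the 13 had an unadjusted p under 0.05, against 12.9%. The slope of Aurka was 0.001 (SE 0.0603), and with the mean over probe sets 12 of the 13 were positive. Dimmer probe sets of Aurkb and Cdc20 had negative slopes, of -0.024 and -0.261. Of 9 genes of licensing and the fork 7 had a positive slope (median 0.08), of 4 genes of nucleotide supply 2, of 8 G1 cyclins and CDKs 3, and of 4 genes of the G1 switch 1. The 13 genes share their arrays and are not independent observations.

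Ccnb2, a B-type cyclin that binds CDK1, had the steepest slope. Signals were 1863.4 (clone 10), 2048 (clone 3), 3061.3 (original cells), 3783.9 (clone 9) and 3743.4 (clone 11), so the lines low in Aqp2 were low and those high in Aqp2 were high, over 2.03 times. The slope was 0.43 (SE 0.0597, limma adjusted p = 0.137, unadjusted p = 6.67e-05). It lay between 0.40 and 0.48 over all settings tried, with adjusted p between 0.0569 and 0.596.

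Mki67 had 5769.6 (clone 10), 7226.5 (clone 3), 9016.2 (original cells), 9424.2 (clone 9) and 8320.9 (clone 11), which again put clones 10 and 3 below the other 3 lines (slope 0.23, SE 0.0592, limma adjusted p = 0.256). Ccna2, the cyclin of S phase and G2, had 5728.1 (clone 10), 7417.8 (clone 3), 7804.8 (original cells), 8887.8 (clone 9) and 8421.7 (clone 11) (slope 0.21, SE 0.0529, limma adjusted p = 0.257). Top2a had 6512.4 (clone 10), 8102.7 (clone 3), 9013.6 (original cells), 9845.4 (clone 9) and 9127.7 (clone 11) (slope 0.19, SE 0.0505, limma adjusted p = 0.259). In all 4 of these genes clone 10 was lowest, clone 3 next and clone 9 highest. A second probe set of Ccna2 had a slope of 0.14 and a second one of Top2a 0.17.

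**Figure D4:**
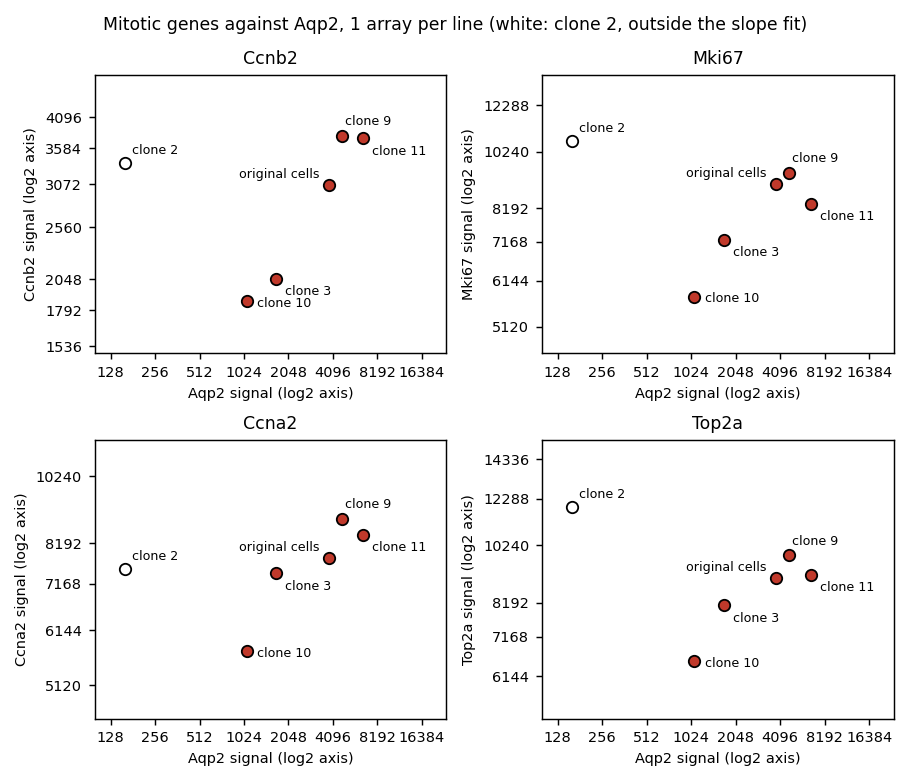
Signal of 4 mitotic genes against that of Aqp2, 1 point per line, both axes logarithmic with base 2. Red points are the expressing lines, which run from clone 10 at the lower left to clones 9 and 11 at the right, and the white point is clone 2, which has the lowest Aqp2 signal (159.28) and a Mki67 signal of 10679 and a Top2a signal of 11889, above all expressing lines.

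Clone 2 did not continue this order. With the lowest Aqp2 signal of all, it had a Ccnb2 signal of 3362, between those of the original cells and clone 11, and Mki67 and Top2a signals above those of all other lines.

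Clones 10 and 9 were often at the ends of the range in the 13 G2 and mitosis genes. Clone 10 was the lowest of the expressing lines for 11 of the 13, against 22% of all genes, and clone 9 the highest for 12 of 13, against 25.3%. The median deviation of the 13 genes from the mean of the expressing lines on the log2 scale was -0.40 (clone 10), -0.06 (clone 3), 0.07 (original cells), 0.09 (clone 11) and 0.23 (clone 9), while that of all genes was within 0.014 of 0 in every one of these lines. For the licensing and fork genes it was -0.16 in clone 10, and clone 10 was the lowest expressing line for 7 of 9. Clone 10 bore on the slopes too. Without it, 10 of the 13 slopes of G2 and mitosis genes were positive, 1 had an unadjusted p under 0.05 and the median slope was 0.11, while leaving out any other single line gave 12 or 13 positive slopes. The share of all genes with such a limma p also fell without clone 10, from 12.9% to 6.55%. Leaving out clone 3 gave 5 of the 13 with such a p, beside 7.67% of all genes. Leaving out clone 9, clone 11 or the original cells gave 7, 11 and 7, beside 14.6%, 15.6% and 11% of all genes. Without clone 10 the slope was 0.48 for Ccnb2, 0.14 for Mki67, 0.11 for Ccna2 and 0.11 for Top2a.

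Genes of G1 varied among themselves, and whether roles differ was not tested. Ccnd3 had 1132.3 (clone 10), 1140 (clone 3), 1154.8 (original cells), 1386.2 (clone 9) and 1320 (clone 11), with clone 10 lowest and clone 9 highest as in the mitotic genes above (slope 0.10, SE 0.0648, limma adjusted p = 0.614). E2f1 also had clone 10 lowest and clone 9 highest (slope 0.13, SE 0.0806, limma adjusted p = 0.589). Ccnd1 had 2035.7 (clone 10), 3091 (clone 3), 1877.3 (original cells), 2307.2 (clone 9) and 1614.7 (clone 11) (slope -0.17, SE 0.11, limma adjusted p = 0.609), so its extremes were clones 3 and 11. Cdk4 had a slope of -0.07 and Rb1 of -0.07, with limma adjusted p of 0.627 and 0.707. The other probe sets of Cdk4 had slopes of -0.19 and -0.1. Rrm2, higher in clone 2, had a slope of 0.11 (limma adjusted p = 0.443), and Ccne2 one of -0.07 (0.786). The other probe sets of Rrm2 had slopes of 0.009 and -0.04.

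**Figure D5:**
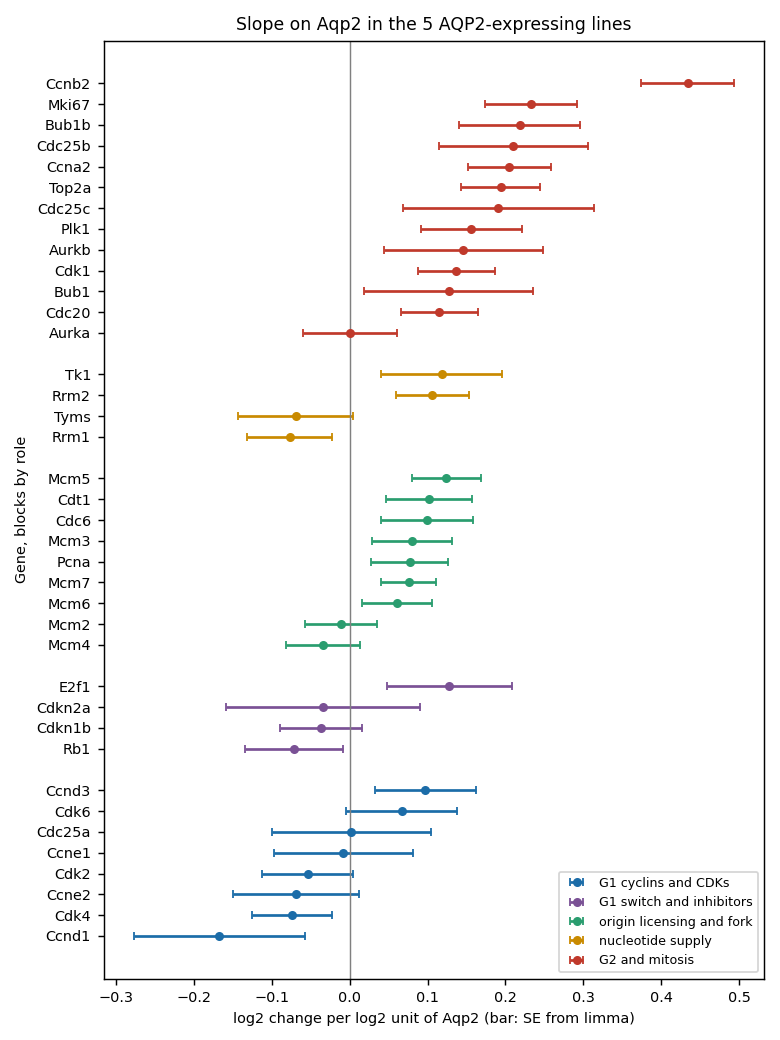
Each point is the slope of 1 gene on Aqp2 over the 5 expressing lines, in log2 units per log2 unit of Aqp2, with its standard error from limma as a bar, sorted within blocks of role. No gene passed the test, all 13 G2 and mitosis genes lie at or above 0, and Ccnb2 lies farthest to the right at 0.43.

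Further genes of the machinery were examined as lists. Of 35 other genes of mitosis, all past the filter, 0 passed the limma test in either comparison. An unadjusted p under 0.05 was found for 7 in clone 2, against 22.3% of all genes, and for 19 in the slope, against 12.9%. Of the 35 slopes, 34 were positive, against 50.9% of all genes, with a median of 0.17. Clone 10 was the lowest expressing line for 29 genes, against 22%. Clone 9 was the highest for 16, against 25.3%, and the original cells for 13, and the median deviation was 0.12 in clone 9 and 0.15 in the original cells. Without clone 10, 29 were positive and 5 had an unadjusted p under 0.05, beside 50.3% and 6.55% of all genes. The steepest, named after their values were seen, were Spc24, a kinetochore protein, with 729.11 (clone 10), 939.46 (clone 3), 1590.3 (original cells), 1623.2 (clone 9) and 1619.1 (clone 11) (slope 0.48, limma adjusted p = 0.145), and Anln, the actin-binding protein of the cleavage furrow, with 4193.9, 4520.9, 6471.2, 7645.5 and 7402.2 in the same lines (0.36, limma adjusted p = 0.142). The genes of highest mean signal were Cks1b, a CDK subunit, and Ube2c, the ubiquitin-conjugating enzyme of mitotic exit. Cks1b stood at 15561 in clone 2 against 14540 ± 637 (SD, n = 5; log2 difference 0.10, limma adjusted p = 0.626), with a slope of 0.02. Ube2c stood at 11128 against 10030 ± 1150 (SD, n = 5; 0.16, limma adjusted p = 0.607), with a slope of 0.12. In clone 2, 28 of the 35 differences were positive, against 51.5% of all genes, with a median of 0.21 beside 0.01.

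Of 40 other genes of DNA replication, 38 were tested and 0 passed by limma in either comparison, with 13 at an unadjusted p under 0.05 in clone 2, against 22.3% of all genes, and 6 for the slope, against 12.9%. The clone 2 differences were positive for 25 of 38, against 51.5% of all genes, with a median of 0.20. The slopes were positive for 26 of 38, against 50.9% of all genes, with a median of 0.03. Rpa1, which coats single-stranded DNA, had 8187.6 in clone 2 against 10570 ± 528 (log2 difference -0.37, limma adjusted p = 0.117), and the primase Prim1 5353.5 against 7066 ± 576 (-0.40, limma adjusted p = 0.152), each with n = 5. The polymerase subunit Pola1, named after its value was seen, was called only without clone 9 (log2 difference 0.65, limma adjusted p = 0.0426). In that setting the number called among all genes tested also rose, from 325 to 541. With all lines Pola1 had 2568.4 against 1673 ± 132 (SD, n = 5; 0.62, limma adjusted p = 0.0731). Of 36 other control genes, 34 were tested and 0 passed by limma, with 6 at an unadjusted p under 0.05 in clone 2, against 22.3% of all genes, and 7 for the slope, against 12.9%. Their median difference was 0.11 and their median slope -0.03. Among these, the CDK inhibitor Cdkn1a stood at 5135.1 in clone 2 against 5261 ± 637 (log2 difference -0.03, limma adjusted p = 0.949), and Tfdp1, the partner of E2F factors, at 5604.1 against 4304 ± 268 (0.38, limma adjusted p = 0.152), each with n = 5.

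Where a gene had more than 1 probe set past the filter, the others mostly had the same sign. Of 36 other probe sets of the 38 genes, 30 had the sign of the one used in the clone 2 comparison. Only 1 of the 36 was called, that of Rrm2 given above, against 560 of all 22518 probe sets tested. Among the expressing lines the median ratio of the highest to the lowest signal was 1.63 for the G2 and mitosis genes, 1.24 for licensing and fork genes and for nucleotide supply, 1.27 for G1 cyclins and CDKs and 1.37 for the G1 switch, beside 1.38 for all genes tested.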

How the data were processed

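RNA of 6 lines was measured on 1 Affymetrix mouse array each. The deposited signal intensities are MAS5 values on a linear scale, and Affymetrix Expression Console 1.1 is named per the submitters' processing notes. MAS5 uses mismatch probes, which makes low values unreliable. Each array's mean without its outer 2% at either end was 500, so the deposited values share a common scale. The number of arrays limits the precision.

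Control probe sets (64 of 45101) were left out. Symbols came from the platform annotation, updated by gene identifier to GRCm38.p6 (34741 of the 34945 probe sets with 1 gene; 932 had several and 9160 none). With limma 3.58.1 (R 4.3.3, eBayes with trend), log2(signal + 18.85) was fitted over 22518 probe sets, the offset taken from the 25th percentile. Residual degrees of freedom were 4 for clone 2, which was assumed to vary like the other lines, and 3 for the slope. Tests were two-sided, and the scripts were tested on simulated data.

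The members and lists were chosen with earlier results of these data known. Full values are given for Aqp2, called genes, the 2 largest clone 2 differences and the highest mean signal in each role, and the 3 smallest slope p-values. In wider lists statistics are given for called genes, or else the 2 of highest mean signal, and Spc24, Anln and Pola1 were added after their values were seen. Values of other genes account for the rest of the list. Alternatives were the offset, filter, scaling, variance model, mean over probe sets and leaving out each expressing line. Choosing probe sets without suffixes for shared or cross-binding probes was added after seeing the data.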

Additional observations from a re-analysis of the deposited data

How the results depend on the processing

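No paired analysis was possible because replicate numbers only name the lines in accession order, and clone 2, a single array, shares just 1 number with the expressing lines. Values are for log2 differences or slopes. The count of cell cycle genes called in clone 2 (2) was 0 with no filter and 0 without the mean-variance trend, and 0 to 3 when an expressing line was left out. The count of other genes called from the wider lists (0) was 0 to 1 on leaving out a line. The 560 probe sets called in clone 2 became 210 with no filter, 219 without the trend and 154 to 943 on leaving out a line. The 3 probe sets called for the slope became 0 with no filter, 0 with the filter at the 75th percentile, 0 without the trend, 5 with a robust fit and 0 to 14 on leaving out a line, while the cell cycle genes called for the slope were 0 throughout. Of 568 values of single genes under other settings, 534 kept sign and side of the threshold in the clone 2 comparison and 549 in the slope.

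Signs changed in 8 genes for clone 2 and 13 for the slope, among them Aurkb, Bub1 and E2f1, whose slopes of 0.15, 0.13 and 0.13 turned negative without clone 10, and the cause was not tested. For clone 2, median centring gave 0.058 for Ccnd1, 0.064 for Mcm4, 0.039 for Mcm7, 0.084 for Tk1 and 0.082 for Ccna2. Quantile normalization gave 0.057 for Mcm7 and 0.115 for Pcna. The mean over probe sets gave -0.022 for Cdkn1b, 0.104 for Mcm4 and 0.031 for Mcm7, and a probe set without the suffixes gave 0.067 for Mcm7. On leaving out a line the ranges were -0.133 to 0.099 for Ccnd1, -0.058 to 0.0012 for Mcm4, -0.046 to 0.082 for Tk1, -0.11 to 0.048 for Ccna2 and -0.0048 to 0.091 for Cdk1. For the slope, median centring gave 0.011 for Ccne1 and 0.0057 for Mcm2, the mean over probe sets gave 0.007 for Cdkn1b and -0.024 for Cdc20, and a probe set without the suffixes gave -0.0064 for Mcm3. On leaving out a line the slope ranged from -0.0068 to 0.159 for Cdk6, -0.089 to 0.05 for Ccne1, -0.088 to 0.014 for Cdk2, -0.081 to 0.121 for Cdc25a, -0.00034 to 0.205 for E2f1, -0.199 to 0.072 for Cdkn2a, -0.021 to 0.0075 for Mcm2, -0.045 to 0.026 for Aurka, -0.112 to 0.268 for Aurkb and -0.15 to 0.265 for Bub1. Median centring raised the median clone 2 difference of all genes from 0.013 to 0.105. Then 30 of the 38 cell cycle genes were positive, against 61.1% of all genes under the same setting. Of 135 medians of lists under other settings, 14 moved by more than the spread between lines for clone 2 and 20 for the slope, with 8 and 5 changes of sign.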
